A study of Mus musculus with 4 samples.

Results

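The genes described here are those of the proteasome, of ubiquitin conjugation and of ubiquitin removal, taken from a microarray study of mouse liver. They are every gene whose single symbol in the platform annotation starts with Psma, Psmb, Psmc, Psmd, Psme or Ube2, or with Usp followed by a digit, except Usp2. This gave 89 genes of the 8251 named on the array, each read from the probe set of that gene whose signal averaged highest over the arrays. They comprised 7 alpha and 7 constitutive beta subunits of the 20S core, 3 beta subunits of the immunoproteasome, 6 ATPase and 11 non-ATPase subunits of the 19S particle, 3 assembly chaperones of that particle, 3 proteasome activators, 21 Ube2 genes, 26 Usp genes, and 2 genes that share only the name stem (Psmc3ip and Psme3ip1). The liver RNA came from male C57BL/6 mice and was measured on 4 Affymetrix MG_U74Av2 GeneChips. The arrays stood for sham-operated mice at zeitgeber time (ZT) 2, sham-operated mice at ZT14, and mice without adrenal glands at ZT2 and at ZT14, where ZT counts hours from lights on. Adrenalectomy (ADX) was bilateral, by a dorsal approach under ketamine and xylazine, and removes the main source of circulating glucocorticoids. ADX mice drank 0.9% NaCl and sham mice water, and all ate standard chow. The labels give no age and do not say how many animals an array holds.

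The proteasome is the barrel-shaped protease that degrades proteins marked with ubiquitin. Its 20S core holds rings of alpha subunits, which form the gate, and rings of beta subunits, which cut. The 19S particle caps the core, binds ubiquitin chains, removes them and unfolds the substrate with its ring of ATPases. Ubiquitin reaches a substrate through an activating enzyme, a conjugating enzyme (the Ube2 family) and a ligase, and is taken off by deubiquitinases, of which the Usp family is a large class. In liver this system turns over short-lived enzymes and, as in other tissues, the repressors of the circadian clock.

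Each group had 1 array, so no difference between groups has a replicate check, and differences are described by size. Arrays were brought to the same trimmed mean, lower signals were raised to a floor of 3.91 units, and differences are on the log2 scale. A gene passed 2-fold when its signals were 2-fold or more apart and the array with the higher one carried a Present call (the detection call of the array software), and 1.5-fold was counted in the same way. A gene was measured in a comparison when at least 1 of its 2 arrays was Present. Each array enters 2 of the 4 comparisons, so a comparison of times and a comparison of operations that share an array are not independent. The sham and ADX pairs of times share no array, nor do the ZT2 and ZT14 pairs of operations. Present calls covered 44.4% to 47.0% of probe sets per array. Dbp, a clock output gene, had signals of 1.203 and 98.2 at ZT2 and ZT14 in sham and of 0.83 and 115.8 in ADX, and Lpin1, a glucocorticoid target, 59.9, 324.0, 28.5 and 44.3. Every set of 4 signals, here and after, gives the sham arrays first and the ADX arrays second, each with ZT2 before ZT14. Of 12 hepatocyte markers on the array, 12 were Present on all arrays, and of 4 bile duct markers 0 were Present on any.

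Of the 89 genes, 71 were Present on all 4 arrays, 6 on some and 12 on none. Those Present on none were Psmc4, Psmd2, Psmc3ip, Ube2c, Ube2f, Ube2t, Usp12, Usp17la, Usp17lc, Usp21, Usp29 and Usp42, and no level is given for them. Psmc4 and Psmd2 encode subunits that every 19S particle holds, and their probe sets gave signals of 5.64 at most. Across the 71 genes, the brightest array exceeded the dimmest by a median of 1.30-fold, against 1.36-fold over 3889 genes Present on all arrays. For 57 of the 71 that ratio was under 1.5-fold (80.3%), against 68.5% of the 3889 genes. Over the 1600 of them with a mean signal of 100 or more, the share was 79.1%. The plot of proteasome signals relative to each gene's mean shows pale rows for most subunits and darker cells for a few of the 19S particle.

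**Figure D1:**
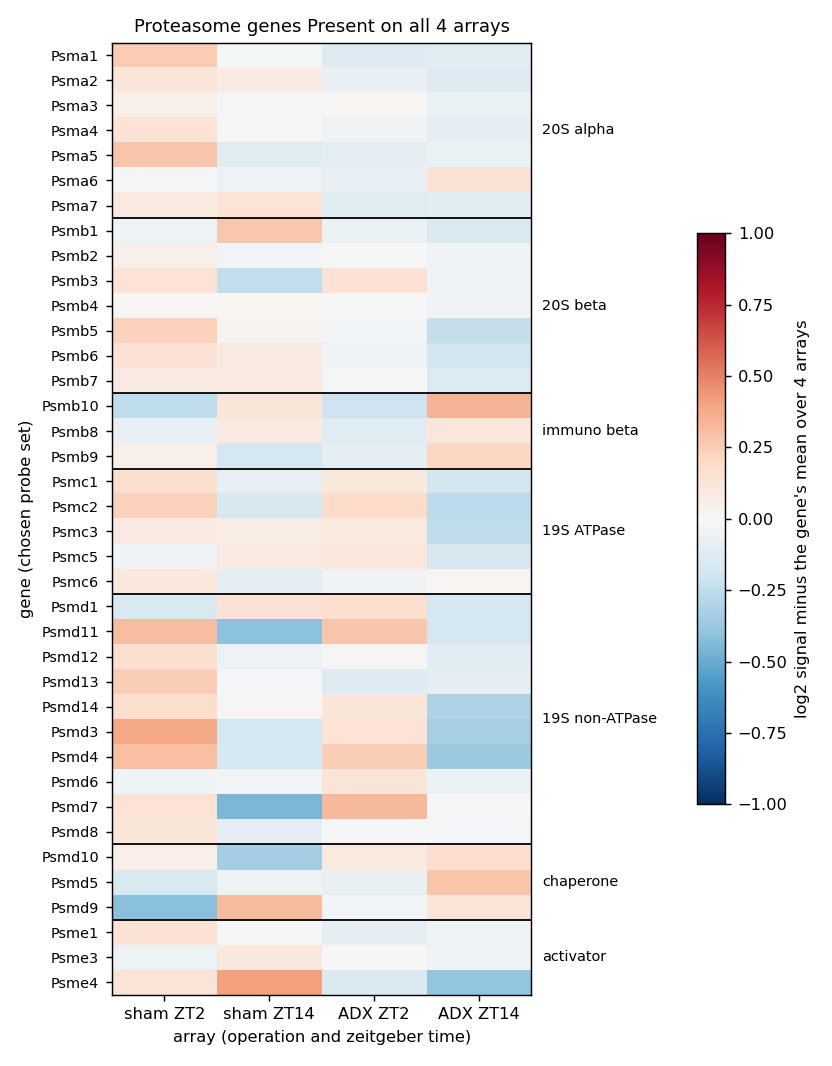
Log2 signal of 38 proteasome genes (rows, grouped by role) on the 4 arrays (columns), each minus the gene's mean over the arrays; red is above and blue below that mean, and 1 array stands for each group. Rows of the 20S core are pale, while Psmd11, Psmd3, Psmd4 and Psmd7 are red at ZT2 and mostly blue at ZT14.

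In each comparison 1 or 2 members passed 2-fold, and between operations at ZT2 their share was near that of all genes. In the sham pair 1 of 76 measured members did (Usp25, higher at ZT14), where 5.46% of all measured genes passed, 3.14% higher and 2.32% lower. In the ADX pair 1 of 75 did (Usp18, higher at ZT14), against 4.92% of genes, 2.69% higher and 2.23% lower. Between operations at ZT2, 2 of 77 did (Usp18 and Ube2w, both lower in ADX), against 2.23% of genes, 1.46% higher and 0.77% lower. At ZT14, 1 of 75 did (Usp14, lower in ADX), against 3.4%, 2.01% higher and 1.39% lower. At 1.5-fold, 2 members were higher and 4 lower in the sham pair, where 8.71% and 7.99% of genes were (16.7% in all). In the ADX pair 1 was higher and 4 lower, where 8.38% and 7.7% of genes were (16.1%). Between operations, 2 were higher and 2 lower in ADX at ZT2 (5.91% and 3.44% of genes, 9.35% in all), and 2 higher and 4 lower at ZT14 (7.3% and 5.63%, 12.9% in all). No proteasome subunit passed 2-fold in any comparison. At 1.25-fold or more in both pairs of times, a count chosen after the values were seen, 6 of 71 members were lower at ZT14 (6.81% of 3889 genes). By the same count 2 were higher (6.53%). In ADX at both times, 0 of 71 were lower by that size (2.16% of genes) and 1, Usp34, was higher (3.06%). The plot of differences by role group shows the few points beyond the dotted lines.

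**Figure D2:**
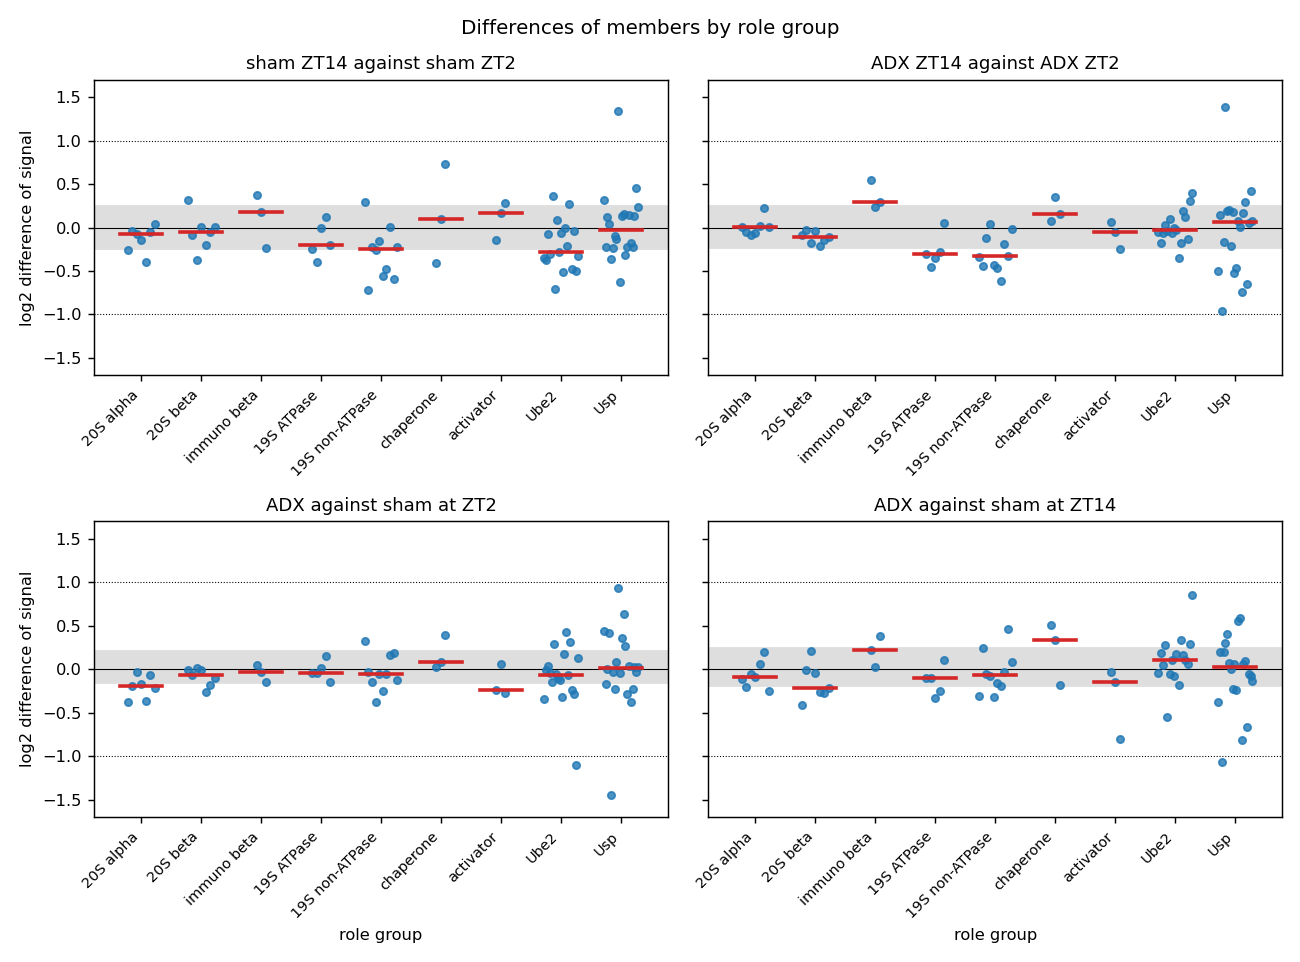
Log2 difference of signal (vertical axis) for each measured member (points) by role group (horizontal axis) in the 4 comparisons; red bars are group medians, the grey band is the middle 50% of all measured genes, and dotted lines mark 2-fold. The 19S medians of -0.20 to -0.33 lie below 0 in both comparisons of times, while the alpha ring medians there are -0.07 and 0.00.

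The subunits of the 20S core differed little in signal between the times of day. All 14 alpha and constitutive beta subunits were Present on all arrays, and all 14 stayed under 1.5-fold between their brightest and dimmest array, with a median of 1.19-fold. All 14 have mean signals above 100. The core as a combined group was chosen after the values were seen. Of the 1600 genes Present on all arrays with a mean signal of 100 or more, 79.1% stayed under 1.5-fold, with a median of 1.28-fold. Psmb4, a structural subunit of the beta ring, gave 759.4, 763.5, 756.7 and 737.9, a ratio of 1.03. Psma3, an alpha subunit, gave 1057, 1006, 1029 and 970.2. Psmb2, another beta subunit, gave 232, 218, 222 and 217. The 4 arrays of each of these genes are close to one another, with the largest ratio 1.09. The sets of Psmb4 and Psma3 carry a suffix of sets that may also read related sequences. The other probe sets of Psmb4 were Present on no array. Psma4 gave 552, 499, 489.8 and 469, Psma2 gave 400.1, 388.9, 350.3 and 337, and Psma6 gave 456, 441, 434 and 507. The median log2 difference of the 14 genes was -0.06 in the sham pair and -0.06 in the ADX pair, against -0.01 and 0.00 over all measured genes. In the sham pair 10 of 14 were lower at ZT14 (50.9% of genes were), with 13 of 14 on signals as deposited and 7 of 14 under quantile normalization. In the ADX pair 10 of 14 were lower (49.5% of genes), with 13 and 11 of 14 under the same settings, and these 10 included all 7 constitutive beta subunits. With all probe sets of a gene averaged, 11 of 14 were lower in the sham pair and 8 of 14 in the ADX pair. These 8 included 5 of the 7 constitutive beta subunits. Psmb1, a beta subunit, was high on the sham ZT14 array alone, at 312, 389.7, 310.3 and 292. Another of its probe sets, Present on all arrays, gave 81.7, 64.1, 54.8 and 49.7, with the sham ZT2 array highest, so the probe sets of Psmb1 disagree. Psmb3 was lowest on the sham ZT14 array, at 854, 657, 862 and 759.

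Between operations, the core subunits were slightly lower in ADX. At ZT2, 13 of 14 had a lower signal in ADX, where 48.8% of all genes did, with a median log2 difference of -0.14 and none past 1.5-fold. At ZT14, 11 of 14 were lower (46.8% of genes), with a median of -0.10. Lower in ADX at both times were 11 of 14, against 25.4% of 3889 genes Present on all arrays, and 1 of 14 (Psmb3) was higher at both, against 27.9%. Of the 1600 such genes with a mean signal of 100 or more, 28.7% were lower and 26.9% higher at both times. Psmb5, the beta subunit with chymotrypsin-like activity and the target of bortezomib, gave 417, 362, 348 and 301, a log2 difference of -0.26 at ZT2 and -0.26 at ZT14. Psmb6, which carries the caspase-like site, gave 394, 381, 346 and 314. For both genes each ADX array was below the sham array of its time. Psma5 gave 246, 187, 191 and 194, and Psma1 gave 176, 147, 135 and 136, so the sham ZT2 array alone was high for both. The other probe set of Psmb5 did not share the direction at ZT2 (log2 0.43). With quantile normalization the counts lower in ADX became 10 of 14 at ZT2 and 9 of 14 at ZT14, with medians of -0.11 and -0.11. With all probe sets of a gene averaged, the counts were 12 of 14 at ZT2 and 9 of 14 at ZT14. The beta ring's median at ZT14 then moved from -0.22 to -0.01. Of 12 hepatocyte markers, 8 were lower in ADX at ZT2 and 11 at ZT14, with medians of -0.04 and -0.07. The part of hepatocytes in the signals of the core was not tested.

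The 19S particle had a lower signal at ZT14 than at ZT2 in both operations. Of 15 measured subunits 12 were lower in the sham pair (50.9% of all genes were), with a median log2 difference of -0.23, and 13 were lower in the ADX pair (49.5% of genes), with a median of -0.32. Lower in both pairs were 10 of 15, where 32.3% of 3889 genes were, and 0 of 15 were higher in both, where 30.8% were. By at least 1.25-fold in both pairs, 5 of 15 were lower, where 6.81% of genes were. These were Psmd3, Psmd4, Psmd7, Psmd11 and Psmc2. The particle as a combined group and the 1.25-fold count were chosen after the values were seen, so the shares beside them are no test. Under signals as deposited and under quantile normalization, the counts of subunits lower at ZT14 were 13 and 12 of 15 in the sham pair. In the ADX pair they were 13 and 13. Markers of endothelial cells, of which 7 of 10 were measured, had summed signals of 484, 368, 496 and 382, with 5 of 7 lower at ZT14 in each pair and medians of -0.35 in sham and -0.14 in ADX. Pecam1, Vwf and Cd34 of that list were Present on no array. Of 10 measured macrophage markers, 10 were lower at ZT14 in sham and 6 in ADX, with medians of -0.18 and -0.05. Of 12 hepatocyte markers, 3 were lower in sham and 7 in ADX, with medians of 0.10 and -0.01. The part of any of these cells in the signals of the 19S particle was not tested.

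Psmd11, a lid subunit known for promoting assembly of the full proteasome, gave 412, 249.5, 402 and 295, so that both ZT2 arrays were above both ZT14 arrays. The difference was 1.65-fold in sham and 1.36-fold in ADX. Its other detected probe set gave 241, 139.9, 219 and 159, with log2 differences of -0.78 and -0.46 close to the -0.72 and -0.45 of the first. Psmd4, the ubiquitin receptor of the particle also called Rpn10, gave 336, 240.4, 323 and 210.3, or 1.40-fold and 1.54-fold lower at ZT14. Psmd3, a lid subunit, gave 123, 83.6, 104 and 75.04, or 1.47-fold and 1.38-fold lower at ZT14. Psmc2, an ATPase of the ring, gave 345, 262, 335 and 244, or 1.32-fold and 1.37-fold lower. Psmd7, which pairs with the deubiquitinating subunit Psmd14, gave 206, 136, 235 and 187, with the sham ZT14 array lowest. For all of these genes both ZT14 signals lay below both ZT2 signals. They were picked as lower in both pairs, so this separation was nearly fixed by the choice and adds no support. The share of all genes separated in this way was not counted.

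**Figure D3:**
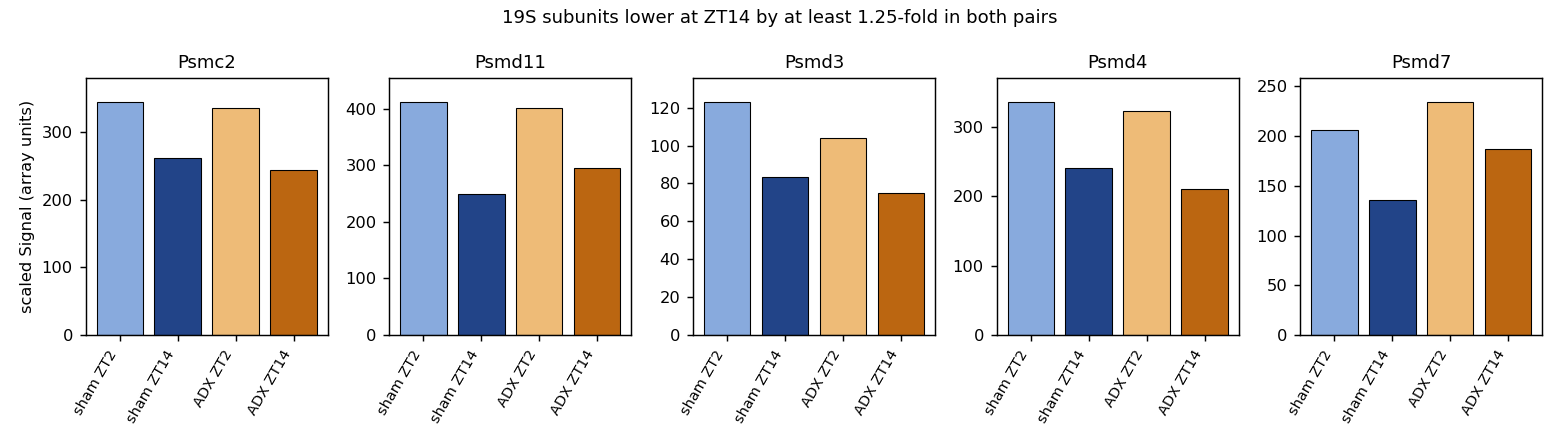
Scaled signal (array units, linear axis from 0) of the 5 subunits of the 19S particle that were lower at ZT14 by at least 1.25-fold in both pairs, with 1 bar per array and a separate axis per gene. Each ZT14 bar is shorter than the ZT2 bar of the same operation.

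The remaining 19S subunits differed less or went one way in only one pair. Psmd14, the metalloprotease that cuts ubiquitin chains off substrates, gave 125, 112, 121 and 89.5, lowest on the ADX ZT14 array. Psmc1, an ATPase, gave 207, 175, 201 and 163, lower at ZT14 in both pairs by log2 differences of -0.24 and -0.30. Psmd1, the scaffold of the base, gave 155, 189.7, 193 and 153, and so was higher at ZT14 in sham and lower in ADX. Psmc3 gave 211, 209, 212 and 166, and its other probe sets gave -0.11 and -0.63 in the ADX pair. Psmc5, an ATPase, gave 78.9, 85.7, 87.8 and 72.3, and Psmd12, a lid subunit, gave 35.4, 30.4, 32.0 and 29.4. Psmc6 and Psmd6 stayed within 1.15-fold and 1.14-fold over the 4 arrays. Between operations the median of the particle was -0.04 at ZT2 and -0.10 at ZT14. The largest differences between operations were those of Psmd13, lower in ADX at ZT2 (140.3 against 108), and of Psmd7, higher in ADX at ZT14.

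The stretches before the starts of the 19S genes that were lower at ZT14 in both pairs are shown because these genes were lower together at ZT14. They are the 250 bases upstream of the start in RefSeq, build GRCm38.p6, written in the direction of the gene. Of the 5 genes 3 had a window in the table, and Psmd3 and Psmd7 did not. Psmd4 lies on the minus strand (chr3:95042615-95042864), Psmd11 on the plus strand (chr11:80428365-80428614) and Psmc2 on the plus strand with 2 annotated starts (chr5:21785025-21785274 and chr5:21786497-21786746). Capitals mark matches, on either strand, to any of 6 motifs, which were CACGTG (E-box), TTANGTAA (D-box), TGACNNNGC (core of the antioxidant response element), CCAAT (the box of that name), the interferon-stimulated response element and the palindromic glucocorticoid response element.
Psmd4: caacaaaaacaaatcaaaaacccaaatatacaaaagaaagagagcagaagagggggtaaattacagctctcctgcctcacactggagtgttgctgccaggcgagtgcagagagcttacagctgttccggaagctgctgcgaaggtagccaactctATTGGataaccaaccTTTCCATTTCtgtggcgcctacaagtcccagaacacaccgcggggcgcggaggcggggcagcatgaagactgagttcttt
Psmd11: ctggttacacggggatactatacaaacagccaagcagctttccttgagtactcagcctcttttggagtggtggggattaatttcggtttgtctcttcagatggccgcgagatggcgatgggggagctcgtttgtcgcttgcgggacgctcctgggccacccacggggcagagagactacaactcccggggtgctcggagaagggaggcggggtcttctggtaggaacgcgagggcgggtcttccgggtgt
Psmc2 first start: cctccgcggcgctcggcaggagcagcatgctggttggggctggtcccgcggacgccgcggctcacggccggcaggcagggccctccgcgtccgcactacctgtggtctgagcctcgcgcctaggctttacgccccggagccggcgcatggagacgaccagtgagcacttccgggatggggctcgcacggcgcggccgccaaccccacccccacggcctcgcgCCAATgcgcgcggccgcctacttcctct
Psmc2 second start: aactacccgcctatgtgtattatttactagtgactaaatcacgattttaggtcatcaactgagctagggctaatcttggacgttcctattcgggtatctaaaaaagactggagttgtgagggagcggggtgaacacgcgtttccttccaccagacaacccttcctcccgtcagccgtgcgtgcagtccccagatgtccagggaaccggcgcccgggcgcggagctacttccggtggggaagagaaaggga
The window of Psmd4 holds ATTGG, the CCAAT box read from the other strand, 95 bases before the start, and TTTCCATTTC, a match to the interferon-stimulated element, 80 bases before it. The first window of Psmc2 holds a CCAAT box 28 bases before the start, and the windows of Psmd11 and of the second start of Psmc2 hold no match. Over the full 300-base windows, which reach 50 bases past the start, the CCAAT box was found in 4 of 14 genes of the 19S particle with a window and in 6 of 11 of the 20S core, against 41.1% of 27025 genes and 42.5% of the 6573 genes of the array with a window. The E-box, through which the clock activators act, was found in 0 of 14 and 1 of 11, against 8.09% of all genes and 11.5% of array genes, and the D-box, bound by Dbp and its relatives, in 0 of 14 and 0 of 11, against 2.72% and 2.02%. The core of the antioxidant response element, bound by the Nfe2l1 and Nfe2l2 factors, was found in 6 of 34 proteasome genes with a window, among them Psmb5, Psmb6, Psmc6 and Psmd12 (17.6%), near the 16.9% of array genes, with 14.0% over all genes. The interferon-stimulated element was found in 1 of 14 genes of the 19S particle, which is Psmd4, and in 4 of 34 proteasome genes, against 3.99% of all genes and 3.89% of array genes. The glucocorticoid element was found in none of 69 members with a window and in 0.052% of genes. A match is a description of the letters and not a site of binding.

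The subunits of the immunoproteasome, which replace the cutting beta subunits in immune cells and after interferon, had a higher signal at ZT14 in both pairs for Psmb8 and Psmb10 and in the ADX pair for Psmb9. Psmb10 gave 140.0, 181, 144 and 211, higher at ZT14 by 1.29-fold in sham and 1.46-fold in ADX. Psmb8 gave 94.8, 107, 92.4 and 109, within 1.18-fold in all, where the median of 3889 genes Present on all arrays was 1.36-fold. Of those genes, 30.8% were higher at ZT14 in both pairs. Psmb9 gave 78.6, 66.7, 70.9 and 87.2, lower at ZT14 in sham and higher in ADX. None of the 3 genes passed 1.5-fold, where 16.7% of genes did in the sham pair and 16.1% in the ADX pair. Psme1, part of the activator that interferon induces, gave 408, 368, 345 and 360.4, highest on the sham ZT2 array. Of 22 leukocyte markers 10 were Present on at least 1 array and 5 on all, the T cell markers Cd3d, Cd3e, Cd3g, Cd4 and Cd8a were Present on none, and the summed signal of the 10 was 446, 433, 479 and 509. The 10 detected macrophage markers summed to 1484, 1315, 1556 and 1432. The part of these cells in the immunoproteasome signals was not tested, and in RNA from whole liver more cells of a type and more RNA per cell cannot be told apart.

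Among the activators and chaperones, only Psme4 and Psmd9 passed 1.5-fold in any comparison. Psme4, the activator also called PA200, gave 178, 217, 148 and 124, lower in ADX at both times (25.4% of genes were). It was 1.21-fold lower in ADX at ZT2 and 1.74-fold lower at ZT14, where 5.63% of genes were lower by 1.5-fold or more. Psme3, the nuclear activator PA28 gamma, stayed within 1.12-fold, at 42.3, 47.3, 44.2 and 42.7. Psmd9, a chaperone of the ATPase ring, gave 49.9, 83.0, 65.4 and 72.9, low on the sham ZT2 array alone. It was 1.66-fold higher at ZT14 in sham, where 8.71% of genes were higher by 1.5-fold or more, and 1.12-fold in ADX. The only probe set of Psmd9 has the suffix that Affymetrix gives to sets picked under relaxed rules. Psmd10, the chaperone also called gankyrin, gave 29.6, 22.4, 30.2 and 31.8, with the sham ZT14 array low. Psmd5 gave 112, 120, 118 and 151, highest on the ADX ZT14 array. Of the 2 genes that share only the name stem, Psme3ip1, which encodes a partner of Psme3, gave 63.7, 65.9, 64.0 and 59.3 and Psmc3ip was not Present.

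The Ube2 conjugating enzymes had a median log2 difference between the times of -0.28 in sham and -0.03 in ADX, and the difference of these was not tested. Of 17 measured in the sham pair, 14 had a lower signal at ZT14, where 50.9% of genes did. With all probe sets averaged 12 of 17 did, with a median of -0.21, and with the floor doubled the median was -0.11. In the ADX pair 10 of 16 were lower, where 49.5% of genes were. Over the 15 Present on all arrays, 8 were lower in both pairs, where 32.3% of genes were, and 2 were higher in both. Ube2b, an enzyme of histone ubiquitination and DNA damage tolerance also known as Rad6b, gave 143, 110.2, 142 and 126. Ube2l6, which conjugates the interferon-induced modifier Isg15, gave 77.4, 54.1, 62.1 and 61.1, highest on the sham ZT2 array and 1.43-fold lower at ZT14 in sham. Ube2v1, a partner of Ube2n without its own catalytic site, gave 148, 106, 125 and 114. In each of these 3 genes the sham ZT14 array was the lowest.

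Ube2d2a, of the versatile Ube2d family that works with many ligases, gave 72.3, 68.6, 74.0 and 71.1, a ratio of 1.08. Another of its probe sets, Present on 3 arrays, gave log2 differences of 1.45 between the times in sham and 0.73 between operations at ZT2, so the probe sets of Ube2d2a disagree. Ube2g1 gave 175, 186, 168 and 179. Ube2n, which builds chains used in signalling and DNA repair, gave 120.0, 119, 135 and 106. Ube2r2, a partner of cullin ligases, gave 396, 342, 379 and 431. In the chosen probe sets of these 4 genes no arrays differed by more than 1.28-fold. Ube2z, the enzyme that works with the activating enzyme Uba6, gave 54.2, 43.3, 59.3 and 78.0, and was 1.80-fold higher in ADX at ZT14, past 1.5-fold (7.3% of genes were, higher). In the other probe set of Ube2z that log2 difference was -0.09. Ube2e1 gave 47.8, 61.5, 43.1 and 41.8, with the sham ZT14 array alone high. Ube2e3 had a Present call on 1 array only, with signals of 7.82 at most. Of the 15 Ube2 genes Present on all arrays, 14 stayed under 1.5-fold over the 4 arrays (93.3%, against 68.5% of all such genes). Ube2w gave 8.42, 5.96, 3.65 and 7.26, with Present calls on the sham arrays only, and was at least 2.15-fold lower in ADX at ZT2 against the floor. All of its signals are near the floor, and with the floor doubled the log2 difference was -0.11.

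The Usp deubiquitinases held all but one of the members past 2-fold. Their median log2 differences were -0.03 and 0.06 between the times in sham and ADX and 0.01 and 0.03 between operations at ZT2 and ZT14, and with all probe sets averaged the ADX value was -0.15. Of 17 Present on all arrays, 11 stayed under 1.5-fold over the 4 arrays (64.7%), near the 68.5% of all such genes. Usp14, which docks on the 19S particle and trims ubiquitin chains there, gave 49.7, 53.8, 49.8 and 25.6. Its signal was alike on 3 arrays and 2.10-fold lower on the ADX ZT14 array than on sham ZT14. Within ADX it was 1.95-fold lower at ZT14 than at ZT2, short of 2-fold. The other probe set of Usp14 was not Present on any array, and the mean of both gave a log2 difference of -0.94 against sham. Usp39, a spliceosome protein of the family without protease activity, had its lowest signal on the same array, at 22.9, 19.6, 18.8 and 11.2. Usp5, which recycles free ubiquitin chains, did as well, at 109, 94.0, 93.1 and 59.3, the last without a Present call. These 3 genes were each at least 1.5-fold lower in ADX than in sham at ZT14 (5.63% of genes were, lower), and 3 of 20 measured Usp genes were.

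**Figure D4:**
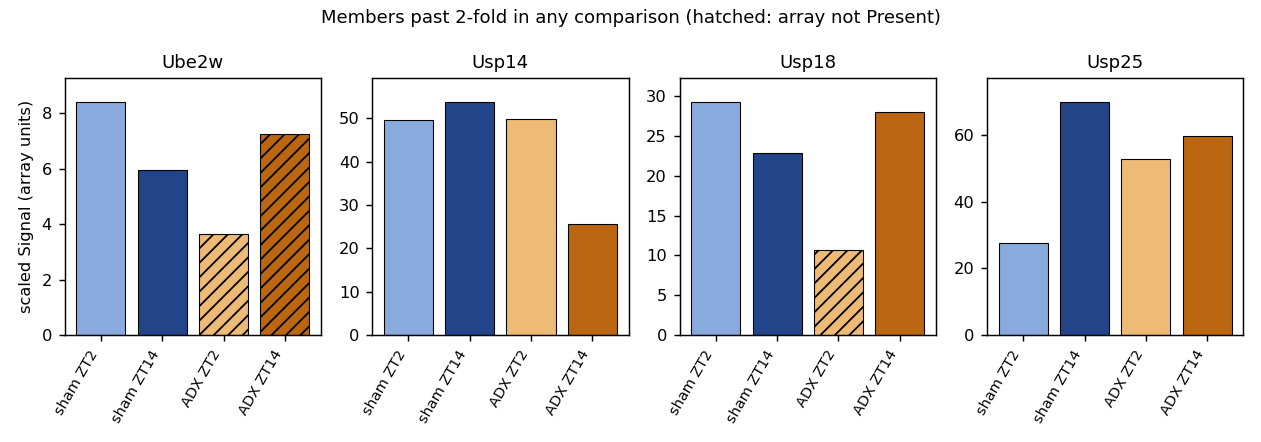
Scaled signal (array units, linear axis from 0) of the 4 members past 2-fold in any comparison, with 1 bar per array and a separate axis per gene; hatched bars had no Present call. Usp14 is low on the ADX ZT14 array alone, Usp18 on ADX ZT2 alone and Usp25 on sham ZT2 alone.

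Usp25, which acts in immune signalling and in degradation from the endoplasmic reticulum, gave 27.6, 70.1, 52.8 and 59.8. The sham ZT2 array was low and the others lay between 52.8 and 70.1, so that it was 2.54-fold higher at ZT14 in sham, 1.13-fold in ADX, and 1.91-fold higher in ADX than in sham at ZT2. Its only probe set has the suffix that Affymetrix gives to sets picked under relaxed rules. Usp18, which removes Isg15 and dampens the interferon receptor, gave 29.3, 22.9, 10.7 and 28.1, with a Marginal call on the ADX ZT2 array. As read, it was 2.73-fold lower in ADX than in sham at ZT2 and 2.61-fold higher at ZT14 than at ZT2 in ADX. With the floor raised to 16.6 units, the log2 differences were -0.82 and 0.76, under 2-fold.

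Other interferon targets are given beside Usp18 because it is one of them. In a list of interferon and antigen presentation genes, 23 of 28 were measured. Their median log2 difference was -0.34 and 0.10 between the times in sham and ADX and -0.31 and 0.30 between operations at ZT2 and ZT14. Between operations at ZT2, 17 of the 23 were lower in ADX and 6 higher, where 48.8% of all genes were lower. Over the 18 Present on all arrays the median at ZT2 was -0.14. Irf7, Tap1, Tapbp, H2-K1 and H2-D1 differed little there, with log2 differences of 0.04, -0.04, 0.01, -0.03 and 0.04. Rsad2, an antiviral enzyme, gave 32.1, 13.8, 13.8 and 21.5, and Ifit1, an antiviral RNA binder, gave 29.0, 10.5, 14.4 and 12.9. Both were highest on the sham ZT2 array. Both passed 2-fold between operations at ZT2, lower in ADX, as 2 of the 23 did (0.77% of genes were, lower). Within ADX, Rsad2 was higher at ZT14, as Usp18 was, and Ifit1 was not. All genes of the list named here were chosen after their values were seen. Rsad2 and Ifit1 were also the 2 of the list past 2-fold lower at ZT14 in sham (2.32% of genes). Both of these comparisons use the sham ZT2 array, so they are not separate observations. Past 2-fold in the list were also 2 genes higher at ZT14 in ADX (2.69%) and 3 of 22 higher in ADX at ZT14 (2.01%). Whether these genes and Usp18 move for a shared reason was not tested.

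Usp3, a histone deubiquitinase, gave 108, 70.0, 104 and 72.7, lower at ZT14 by 1.54-fold and 1.43-fold (6.81% of genes were, by 1.25-fold in both pairs). One of its other probe sets, Present on all arrays, gave log2 differences of 0.10 and -0.32. Usp8, which acts on endosomal cargo, gave 62.2, 85.5, 60.7 and 81.0. It was higher at ZT14 by 1.38-fold and 1.34-fold (6.53% of genes were, by 1.25-fold in both pairs). Usp34 gave 41.4, 45.9, 64.0 and 67.2. It was higher in ADX by 1.55-fold at ZT2 and 1.46-fold at ZT14 (3.06% of genes were, by 1.25-fold at both times). The other probe set of Usp34, also Present on all arrays, gave log2 differences of -0.08 and -0.18, so the probe sets disagree. Those of Usp38 also disagree, with log2 differences of 0.59 and -0.66 between operations at ZT14. Usp7, the deubiquitinase of Mdm2 and p53, gave 58.5, 63.9, 59.4 and 61.7, a ratio of 1.09. Usp4 gave 146, 161, 149.6 and 167, Usp9x gave 112, 133, 115 and 121, and Usp10 gave 132, 113, 117 and 129.7, and none of the 3 differed by more than 1.18-fold between any pair of arrays in these probe sets. Another probe set of Usp9x, Present on all arrays, gave log2 differences of -0.12 and -0.36 between the times, against 0.24 and 0.07. Usp1, which acts in DNA repair, gave 22.0, 27.5, 29.9 and 21.1, higher at ZT14 in sham and lower in ADX. Usp15 gave 60.5, 62.3, 80.7 and 71.6, higher in ADX at both times (27.9% of genes were). Its other probe set, Present on 1 array, gave log2 differences of -0.22 and -0.49 between operations. Usp48 gave 37.2, 32.9, 28.6 and 35.1.

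**Figure D5:**
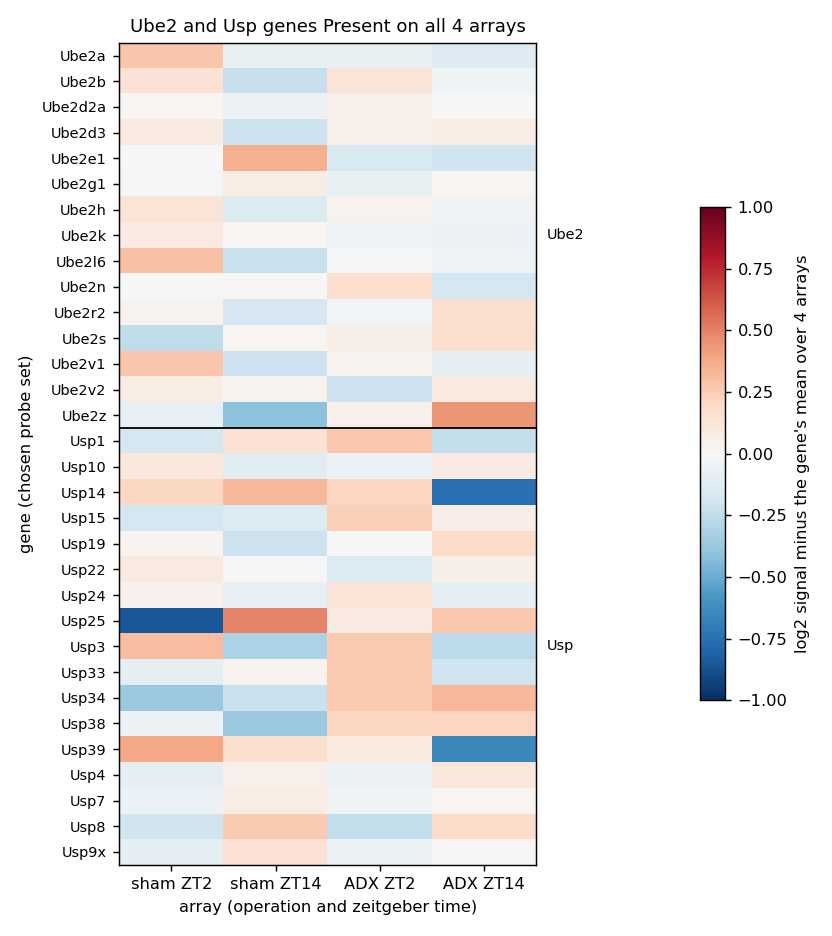
Log2 signal of 32 Ube2 and Usp genes (rows) on the 4 arrays (columns), each minus the gene's mean over the arrays; red is above and blue below that mean, and 1 array stands for each group. The darkest cells are Usp25 on sham ZT2 and Usp14 and Usp39 on ADX ZT14, while Usp34 is blue in sham and red in ADX.

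A limma model with additive terms for time and operation gave an error for each gene, with both operations taken as samples of a time and both times as samples of an operation. It covered 5872 probe sets Present on at least 2 arrays, 75 of them members, and has 1 residual degree of freedom. No member passed an adjusted p of 0.05 for time or for operation, where 0.0341% and 0% of probe sets did. At an unadjusted p under 0.05 were 6 of 75 members for time (13.2% of probe sets) and 1 of 75 for operation (5.6%). For time the smallest p-values in limma were those of Usp3 (log2 difference -0.57, SE 0.16, adjusted p = 0.32), Psmd4 (-0.55, SE 0.16, adjusted p = 0.326) and Psmd11 (-0.59, SE 0.17, adjusted p = 0.326), each lower at ZT14 in both pairs. For operation they were those of Usp34 (0.59, SE 0.16), Usp39 (-0.55, SE 0.20) and Psme4 (-0.54, SE 0.20), each at an adjusted p of 0.83 in limma and in the same direction at both times. Nothing says that arrays of 1 time are replicate animals, and the p-values reflect no more than how these 4 arrays scatter.

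Of the other genes of the pathway, 118 in 5 lists were on the array, and none of the 98 or 99 measured in each comparison passed 2-fold, where 5.46%, 4.92%, 2.23% and 3.4% of all measured genes did. Their median log2 differences were -0.07 and 0.02 between the times in sham and ADX, and 0.02 and 0.05 between operations at ZT2 and ZT14. Ubxn1, a cofactor of the segregase Vcp, gave 393, 229, 386 and 214, lower at ZT14 by log2 differences of -0.78 and -0.85. In another probe set they were -0.99 and -0.77. Sumo3, a ubiquitin-like modifier, gave 418, 287, 423 and 290.2, also lower at ZT14 in both pairs. The list of ubiquitin-like proteins and activating enzymes had medians of -0.22 and -0.24 between the times over 9 and 8 measured genes. Zfand2a, which binds the proteasome under stress, was higher at ZT14, at 15.6, 26.9, 17.0 and 26.3.

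The 11 measured genes of proteasome assembly and regulation had medians of 0.12 and 0.12 between operations at ZT2 and ZT14, with 0 and 1 past 1.5-fold (9.35% and 12.9% of genes). Nfe2l1, the factor that restores proteasome genes when the proteasome is impaired, gave 102, 83.8, 120.4 and 126, higher in ADX by log2 differences of 0.23 and 0.59. Its other probe set gave 0.00 and 0.02. Among 60 ubiquitin ligases on the array, Nedd4l, which marks sodium channels for removal, gave 104, 80.0, 124 and 63.6, with log2 differences between the times of -0.38 and -0.96, and of -0.85 and -1.02 in its other probe set. Otud4, a deubiquitinase outside the Usp family, gave 105, 164, 175 and 106, higher at ZT14 in sham and lower in ADX by 0.65 and -0.72.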

How the data were processed

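The deposited values are linear intensity values (the Affymetrix Signal of each probe set, per the file headers), with a detection p-value that the authors deposited and that was used here only through its Present, Marginal or Absent call. Neither the software version nor its scaling target is given in the sources used here. Identical values stood in the series table (largest difference 0). Each array was scaled to a common 2% trimmed mean (factors 0.925, 0.977, 1.043 and 1.067), floored at 3.91 units (the higher of the lowest Present and the median Absent signal) and set on log2. The 66 control probe sets were left out. Each array had its own wash module, so wash and group cannot be told apart. Actin 3' to 5' ratios were 1.69 to 1.89. The number of arrays limits the precision.

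Genes were named from the platform annotation (all 89 identifiers were in RefSeq, GRCm38.p6). Of the 89, 24 had several probe sets. Suffixes that mark shared or relaxed probes were f on 7 chosen sets, r on 4, g on 1 and s on 1, so these may also read related sequences. Counts rest on size alone. The additive fit used limma 3.58.1 in R 4.3.3 with Benjamini-Hochberg adjustment. Other steps used Python 3.11.15, NumPy 2.4.6 and pandas 2.3.3. The steps were tested on simulated data.

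The members and lists were chosen with earlier results of these data known. Named members are those past 2-fold, the 4 highest and 4 lowest differences per comparison among members Present on both arrays, the 2 brightest and the dimmest Present gene of each role group, the 3 smallest p per effect of the fit, any proteasome subunit, and other probe sets that disagree. Named pathway genes are among the 2 highest or 2 lowest of their list in a comparison. Rsad2 and Ifit1 were chosen after their values were seen, as were Irf7, Tap1, Tapbp, H2-K1 and H2-D1. The same holds for the 20S core and 19S particle as combined groups and for the 1.25-fold count in both pairs. It also holds for Usp5, Usp7, Usp9x, Ube2b, Ube2d2a, Ube2l6, Ube2n and Ube2v1. The 5 probe sets with several symbols that include such a name were not used. Alternatives changed scaling, floor, detection filter, probe sets, fold size and the fit.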

Additional observations from a re-analysis of the deposited data

Results flagged for a closer look

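Ube2w and Usp18 had opposite signs in pairs of the same contrast, past 2-fold in one of them. For Usp18 the log2 difference of ZT14 against ZT2 was 1.39 in ADX and -0.36 in sham, and that of ADX against sham was -1.45 at ZT2 and 0.30 at ZT14. These are readings of the same 4 signals, of which the ADX ZT2 signal was Marginal. For Ube2w the log2 difference of ADX against sham was -1.11 at ZT2 and 0.28 at ZT14, with signals near the floor. With 1 array per group these differences were not tested.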

How the results depend on the processing

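Counts of members past 2-fold were 1, 1, 2 and 1 in the sham pair, the ADX pair and the operations at ZT2 and ZT14. In the sham pair the count was 2 with a floor of 1 unit (Ube2e3 added) and 2 with no detection filter (Ube2o added). In the ADX pair it was 2 under quantile normalization (Usp14 added), 2 with no detection filter, 0 with the raised floor and 0 with both arrays Present. For operations at ZT2 it was 1 with the floor doubled (Usp18), 0 with the raised floor and 0 with both arrays Present, and at ZT14 it was 3 with no detection filter and 0 with all probe sets averaged. At 1.5-fold the counts were 6, 5, 4 and 6. The additive fit called 0 members under all 9 alternatives (smallest adjusted p 0.0675, for time, with a variance trend in limma). Without scaling, the median of all measured genes moved from 0.01 to -0.16 between operations at ZT2 and from 0.03 to -0.10 at ZT14, and 26 of 52 medians (13 lists in 4 comparisons) moved by 0.1 or more. Under quantile normalization 0 of 52 did. No paired analysis was possible because the labels give no replicate numbers and each group has 1 array, so no replicate block could be set. The additive fit holds the other factor as a term, and without that term it also called 0 members.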
